A study of Mus musculus with 6 samples.

Results

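The *Lmx1b* locus was followed in FOXC2 ChIP-seq of mouse podocytes. *Lmx1b* (ENSMUSG00000038765.13) encodes a LIM homeodomain transcription factor (TF). It lies on the minus strand of chromosome 2 of GRCm38, from 33560965 to 33640511, in GENCODE M21. Its members here are all peaks with any part inside the gene body or at most 50 kb from the start, a window of 129.547 kb at chr2:33560965-33690511. There were 37 such peaks among 81142 in all, 15 of the 41075 peaks from control mice and 22 of the 40067 peaks from injured mice. The mice were male and adult, and carried a Cre recombinase active in podocytes and the mTmG reporter, by which sorting picks out green podocytes. ADR mice were given adriamycin, a podocyte toxin, at 18 mg/kg on days 0 and 7, and PBS mice were given PBS alone. Podocytes of both groups were sorted on day 9, with 3 samples per group, and all 3 were pooled into 1 peak list per group. The comparison asks how FOXC2 binding at this gene differed between injured and control podocytes. No test between the groups was possible with 1 pooled list per group, and the number of reads behind each list is not known here. The authors tested FOXC2 binding between the groups with DiffBind, and those results are not used here. Each peak has a summit, a fold over local control (a ratio at the summit, hereafter its fold) and a −log10 q. The intervals given below for shares are 95% Wilson intervals, which cover counting error only. They treat neighboring peaks or sites as independent and are no test between the groups.

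LMX1B is one of the TFs on which podocyte differentiation and maintenance depend, and mutations of the human gene cause nail-patella syndrome, which often involves the glomerulus. LIM homeodomain TFs bind TAAT-rich sites through the homeodomain and recruit the cofactor LDB1 through their LIM domains. FOXC2 is a forkhead TF expressed in podocytes, where WT1, TCF21 and LMX1B act on many of the same genes. ChIP-seq measures where a factor was crosslinked to chromatin, and it does not measure transcription of the gene.

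Peaks of the lists that overlapped by at least 1 bp were joined into 24 sites, numbered from 1, the most upstream, to 24, the nearest to the 3′ end. Of these, 12 were called in both lists, 10 in ADR only and 2 in PBS only. Sequences that reach 100 bp to each side of the summit, the ADR summit where there was one, are printed 5′ to 3′ along *Lmx1b*, read from GRCm38. Capitals mark exact matches, on either strand, to 1 of 6 motifs searched. The forkhead motif was A or G, C or T, AAA, C or T, A. The LMX1B motif was TTAATTA or TAATTAA, which are the same site on opposite strands. The WT1 motif was GNG, G or T, GGG, A or C, G. The TEAD motif was A or G, CATTCC, A or T. The KLF motif was GGG, C or T, G, G or T, GG, which can overlap a WT1 match. The AP-1 motif was TGACTCA or TGAGTCA.

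The first set is shown because it holds the start of *Lmx1b* in RefSeq and the summit just upstream of another annotated start. The promoter is the RefSeq window from 250 bases before to 50 after the start of the curated transcript at 33641098, on GRCm38, and the summit of site 4 lies shortly before the start of the transcript Lmx1b-202. The capitals are a WT1 match in each.
Promoter, chr2:33641049-33641348, minus strand: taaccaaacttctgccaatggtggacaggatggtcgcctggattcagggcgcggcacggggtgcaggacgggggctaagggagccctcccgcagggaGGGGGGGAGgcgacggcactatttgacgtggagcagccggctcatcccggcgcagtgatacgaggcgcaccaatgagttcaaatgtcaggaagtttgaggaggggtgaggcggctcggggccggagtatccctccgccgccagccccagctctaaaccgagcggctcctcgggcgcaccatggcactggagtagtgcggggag
Site 4, chr2:33632306-33632506, minus strand: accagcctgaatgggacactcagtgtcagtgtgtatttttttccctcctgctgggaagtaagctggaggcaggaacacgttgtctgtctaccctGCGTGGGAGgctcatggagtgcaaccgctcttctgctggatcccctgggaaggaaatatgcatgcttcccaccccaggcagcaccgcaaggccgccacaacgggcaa

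The second set holds the 5 sites at which the ADR fold was at least 3 times the PBS fold. In site 7 the capitals are 3 WT1 matches inside a repeat of CTC and CTT triplets. In site 12 they are a forkhead match and a WT1 match, in this order, and in site 17 a WT1 match and a forkhead match. Sites 14 and 22 held none of the 6 motifs.
Site 7, chr2:33628467-33628667, minus strand: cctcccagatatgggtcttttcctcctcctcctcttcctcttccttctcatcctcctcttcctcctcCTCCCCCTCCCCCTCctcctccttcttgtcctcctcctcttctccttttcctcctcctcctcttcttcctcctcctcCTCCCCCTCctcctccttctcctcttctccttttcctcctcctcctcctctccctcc
Site 12, chr2:33605939-33606139, minus strand: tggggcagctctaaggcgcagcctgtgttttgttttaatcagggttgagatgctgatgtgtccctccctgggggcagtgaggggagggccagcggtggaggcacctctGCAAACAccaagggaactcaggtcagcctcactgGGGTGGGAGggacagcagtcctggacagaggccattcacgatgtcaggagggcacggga
Site 14, chr2:33594358-33594558, minus strand: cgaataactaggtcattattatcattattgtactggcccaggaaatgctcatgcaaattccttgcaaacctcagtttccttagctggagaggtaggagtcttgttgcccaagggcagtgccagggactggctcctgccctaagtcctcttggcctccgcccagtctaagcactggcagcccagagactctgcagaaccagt
Site 17, chr2:33586820-33587020, minus strand: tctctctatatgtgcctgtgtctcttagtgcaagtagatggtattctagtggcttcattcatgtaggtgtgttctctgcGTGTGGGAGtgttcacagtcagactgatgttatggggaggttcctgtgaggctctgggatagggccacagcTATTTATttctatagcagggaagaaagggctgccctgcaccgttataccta
Site 22, chr2:33575313-33575513, minus strand: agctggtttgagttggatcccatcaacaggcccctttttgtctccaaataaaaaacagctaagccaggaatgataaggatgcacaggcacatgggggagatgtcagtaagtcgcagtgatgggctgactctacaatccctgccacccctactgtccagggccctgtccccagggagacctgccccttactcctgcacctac

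The third set holds the only LMX1B matches within 100 bp of a site's summit, in site 8 followed directly by a KLF match, and in site 10 alone.
Site 8, chr2:33627016-33627216, minus strand: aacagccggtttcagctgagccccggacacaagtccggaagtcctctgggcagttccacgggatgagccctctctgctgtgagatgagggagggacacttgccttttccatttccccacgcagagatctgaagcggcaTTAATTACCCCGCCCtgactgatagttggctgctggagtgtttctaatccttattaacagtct
Site 10, chr2:33615840-33616040, minus strand: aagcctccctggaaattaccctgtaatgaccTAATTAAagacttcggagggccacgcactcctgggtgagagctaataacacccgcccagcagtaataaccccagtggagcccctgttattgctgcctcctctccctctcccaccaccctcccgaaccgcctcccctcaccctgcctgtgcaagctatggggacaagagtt

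The fourth set holds the site with the lowest ratio of ADR to PBS fold and the stronger of the 2 sites called in PBS only. Capitals are an AP-1 match and then overlapping KLF and WT1 matches in site 15, and an AP-1 match in site 19.
Site 15, chr2:33593211-33593411, minus strand: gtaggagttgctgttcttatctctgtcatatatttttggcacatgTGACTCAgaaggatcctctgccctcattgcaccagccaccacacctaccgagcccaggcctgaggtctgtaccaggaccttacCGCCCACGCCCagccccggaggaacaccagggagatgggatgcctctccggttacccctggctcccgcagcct
Site 19, chr2:33583845-33584045, minus strand: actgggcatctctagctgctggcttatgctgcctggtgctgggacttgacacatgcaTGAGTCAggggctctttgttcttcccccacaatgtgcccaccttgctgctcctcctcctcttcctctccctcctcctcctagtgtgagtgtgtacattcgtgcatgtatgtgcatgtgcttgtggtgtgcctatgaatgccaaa

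FOXC2 peaks lay almost entirely inside the gene, in its long second intron. Intron 2 of the main transcript, Lmx1b-201, runs from 33569283 to 33639488 and takes up 54.2% of the window. It held 14 of the 15 PBS peaks and 19 of the 22 ADR peaks, and 21 of the 24 sites. The remaining sites were site 1, in exon 3 of the divergent antisense transcript C130021I20Rik, site 2 at the promoter, and site 24 in intron 4. From 33643362 to the upstream edge of the window, 47.15 kb held no peak of either list. The last 5.979 kb of the gene held none either. The nearest peaks outside the window were 63.4 kb beyond its upstream edge, with folds of 11.4 in PBS and 6.24 in ADR. Beyond the 3′ edge they were 34.5 kb away in PBS and 42.9 kb away in ADR, with folds of 4.20 and 7.16. The other genes that start in the window are C130021I20Rik, the short record Gm38011 within intron 2 and the pseudogene Gm13529 upstream.

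**Figure D1:**
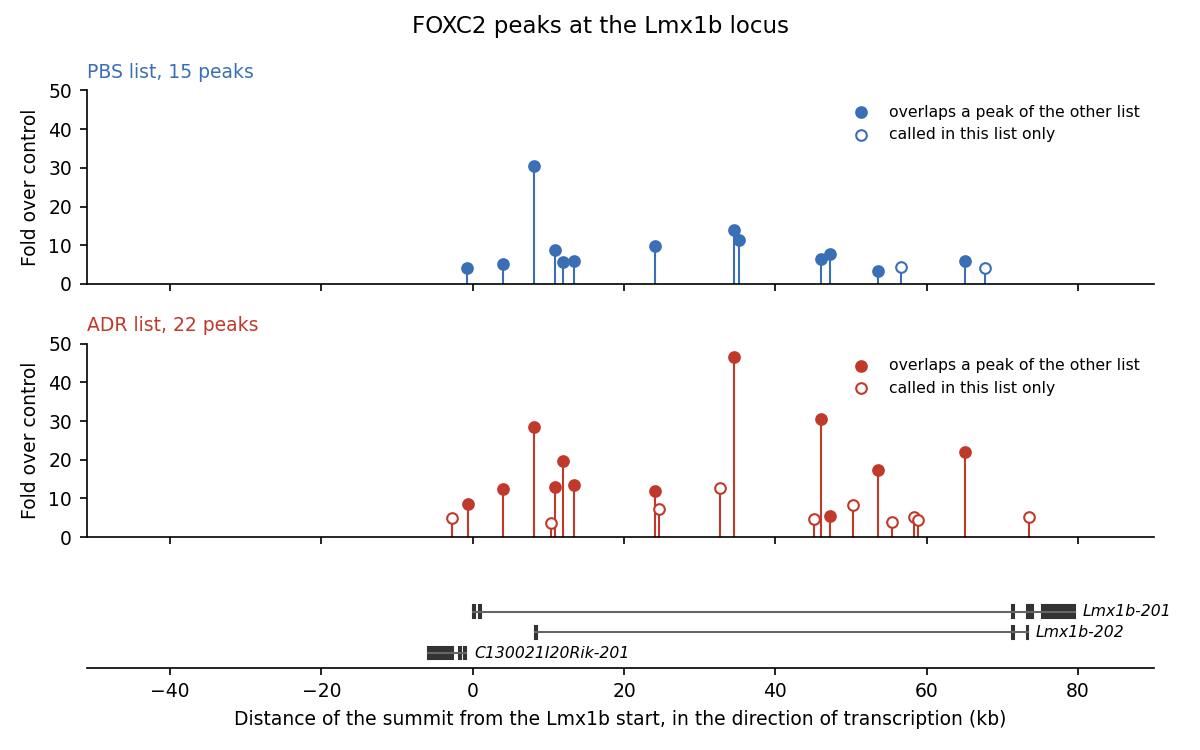
The peaks of each list are plotted by the distance of their summit from the *Lmx1b* start in kb (x axis) and their fold over control (y axis), with filled circles for peaks that overlap a peak of the other list and open circles for the rest. Transcripts are drawn below, with short exons widened so that they can be seen. Folds reach 30.5 in the 15 PBS peaks and 46.5 in the 22 ADR peaks, and the upstream flank holds almost no peaks.

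The ADR list held more peaks at *Lmx1b*, and stronger ones. The 22 ADR peaks had a median fold of 10.2 (3.73 to 46.5), and the 15 PBS peaks one of 6.01 (3.38 to 30.5). Folds of 10 or more were seen at 11 ADR and 3 PBS peaks. In the whole lists, 34.5% of ADR peaks and 25.7% of PBS peaks had them, and the median folds were 7.42 and 6.53. The ADR peaks covered 10265 bp of the locus and the PBS peaks 5351 bp, a ratio of 1.92, while the ratio for the whole lists was 1.05. The median width of a peak at the locus was 377 bp in each list.

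Of the 22 ADR peaks, 10 had no PBS peak on them, 45.5% (26.9 to 65.3%), and 32.3% of all ADR peaks had none. Of the 15 PBS peaks, 2 had no ADR peak on them, 13.3% (3.74 to 37.9%), against 33.1% of all PBS peaks. The background share lay inside the interval for ADR and for PBS alike. When an overlap had to cover 50% of each peak, 14 of 22 ADR peaks had none, 63.6%, against 41.4% of all, and 7 of 15 PBS peaks, 46.7%, against 42.8% of all. The median fold of the 10 ADR-only peaks was 5.05, and that of all ADR-only peaks was 5.96. For ADR peaks with a PBS partner the median was 15.5 at the locus and 8.70 in the whole list. Of the 10, sites 11 and 16, with folds of 12.7 and 8.43, stood above the median of the whole ADR list. The 2 PBS-only peaks, sites 19 and 23, had folds of 4.27 and 4.20, and the median of all PBS-only peaks was 4.98.

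At 10 of the 12 sites called in both lists the ADR fold was the higher. The median ratio of ADR to PBS fold was 2.32 (0.702 to 5.17), against 1.03 over all 26703 sites called in both lists, whose quartiles were 0.758 and 1.47. At 8 of the 12 sites, 66.7% (39.1 to 86.2%), the ADR fold was at least 1.5 times the PBS fold, which held for 23.9% of all such sites. A PBS fold at least 1.5 times the ADR fold was found at 0 of the 12 sites, where the interval reaches 24.2%, and at 17.5% of all sites. A ratio of at least 3, a limit chosen after the values were seen, was reached at 5 of the 12 sites, 41.7% (19.3 to 68.0%), and at 4.8% of all sites. Summits moved little between the lists. The median shift was 29 bp and the largest 47 bp, and the median over all sites was 24 bp.

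**Figure D2:**
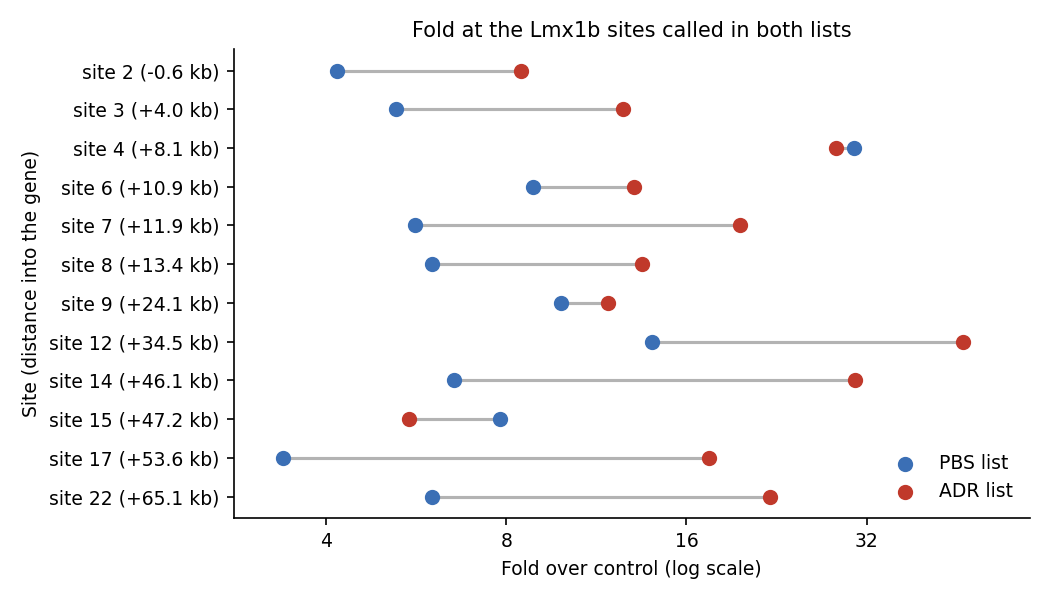
Fold over control (x axis, log scale) is plotted for the 12 *Lmx1b* sites called in both lists (y axis, with the distance into the gene in kb), 1 point per pooled list. For site 12, where PBS had 2 peaks, the stronger is shown. ADR lies to the right of PBS at 10 sites, and sites 4 and 15 are the exceptions.

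**Figure D3:**
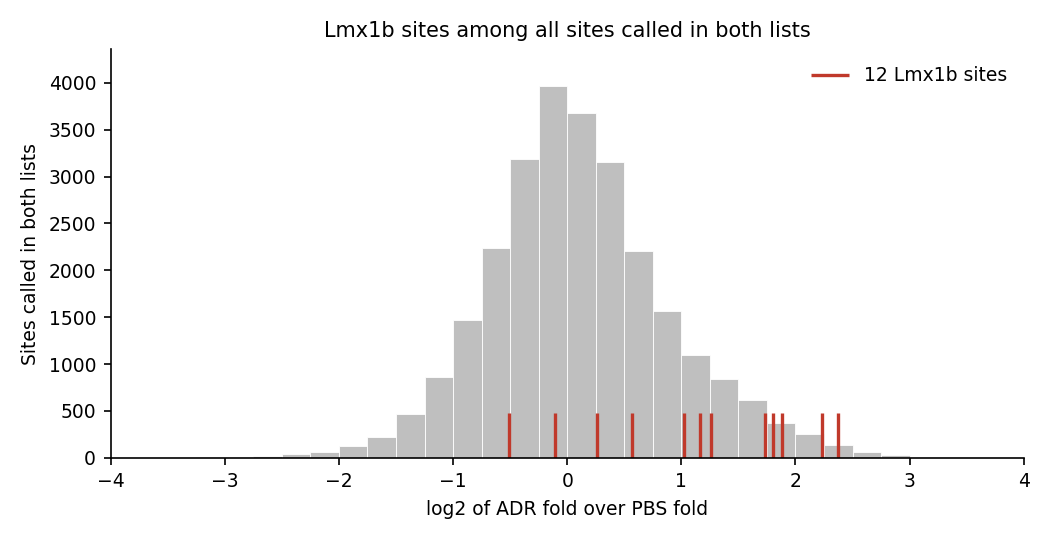
The histogram counts all 26703 sites called in both lists (y axis) by the log2 of the ADR fold over the PBS fold (x axis), and red lines mark the 12 *Lmx1b* sites. Of these, 10 lie above 0, and 5 lie past a ratio of 3, where 4.8% of all sites are.

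At the promoter, site 2 covered both upstream starts of *Lmx1b* in RefSeq, that of the curated transcript at 33641098 and that of a predicted transcript at 33641208. These lie 587 and 697 bp upstream of the GENCODE start. It also covered the start of C130021I20Rik at 33641193. Its fold was 4.16 in PBS and 8.47 in ADR. The ratio of 2.03 stood at percentile 87.6 of all shared sites. Site 1, in the antisense transcript 2.75 kb upstream of the GENCODE start, had an ADR fold of 5.01 and no PBS peak. Since the assay does not tell strands apart, neither site can be assigned to *Lmx1b* rather than to C130021I20Rik. Within 10 kb of the GENCODE start there were 3 PBS and 4 ADR peaks in all. Site 3, 4.03 kb into the gene, had folds of 5.23 in PBS and 12.5 in ADR.

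The strongest PBS site was not at this promoter but at a start farther inside the gene. Site 4 lies 8.11 kb into the gene, at the promoter of Lmx1b-202, a processed transcript that begins at 33632283. Its fold was 30.5 in PBS and 28.4 in ADR, a ratio of 0.931. It ranked 1131 among all PBS peaks by fold and 1867 among all ADR peaks. The fold at the summit was thus nearly the same in both lists, while the ADR peak was 1072 bp wide and the PBS peak 533 bp. The center of its WT1 match is 2 bp from the summit.

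Sites 5 to 8 follow from 10.3 to 13.4 kb into the gene. Site 6 had folds of 8.85 in PBS and 13.1 in ADR, a ratio of 1.48, just short of the limit of 1.5. Site 7 had a fold of 5.63 in PBS and 19.6 in ADR, a ratio of 3.49. Site 8, with an LMX1B match, had 6.01 and 13.5, a ratio of 2.24. Site 5 had an ADR fold of 3.73, the lowest of any ADR peak at the locus. Site 7 is a CT-rich repeat, in which 50-bp reads can be hard to place. Whether read placement moves its fold was not tested.

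The strongest peak of the locus was site 12, 34.5 kb into the gene. The ADR peak, from 33604994 to 33606365, had a fold of 46.5 and was the peak of rank 38 in the whole ADR list, whose highest fold was 49.1. In PBS the same stretch held 2 separate peaks, with folds of 14.0 and 11.4, of which the stronger ranked 6006. The ratio was 3.32. A forkhead match, GCAAACA along the gene, had its center 11 bp from the summit. Upstream of it, site 11 was called in ADR only with a fold of 12.7, the strongest of the 10 ADR-only peaks. Sites 9 and 10 lie together at 24.1 and 24.6 kb. Site 9 had folds of 9.88 and 11.8, a ratio of 1.20, and site 10, with the LMX1B match, was called in ADR only at 7.20.

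The 3 largest ratios were at sites in the far part of intron 2. Site 17, 53.6 kb into the gene, was among the weakest peaks in PBS, with a fold of 3.38 and rank 39940. In ADR its fold was 17.5 and its rank 5800. The ratio of 5.17 stood at percentile 99.3 of all shared sites. Site 14, 46.1 kb into the gene, had a fold of 6.53 in PBS and 30.6 in ADR, a ratio of 4.69 at percentile 99.0. Site 22, 65.1 kb into the gene, had folds of 6.01 and 22.1, a ratio of 3.68. Between them, site 15 went the other way. Only 1.15 kb from site 14, it had a fold of 7.82 in PBS and 5.49 in ADR, a ratio of 0.702. The sites called in ADR only in this stretch, 13, 16, 18, 20 and 21, had folds of 4.02 to 8.43. Site 24, in intron 4, had an ADR fold of 5.10. The PBS-only sites 19 and 23 also lie here, 56.6 and 67.7 kb into the gene. The peak of site 19, from 33583820 to 33584325, covered the start of another predicted RefSeq transcript at 33584293.

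Of the 24 sites, 14 held at least 1 of the 6 motifs within 100 bp of the summit and 10 held none. Forkhead matches were at 5 sites, of which 2 were called in both lists (12 and 17) and 3 in ADR only (13, 16 and 21). At site 21 the center of the match was 1 bp from the summit. By peak, 5 of 22 ADR summits held one, 22.7% (10.1 to 43.4%), and 25.1% of all ADR summits did. In PBS it was 4 of 15, 26.7% (10.9 to 52.0%), and 19.5% of all. WT1 matches were at 7 sites. Counts by list differ from counts by site, since PBS summits lay up to 47 bp from ADR summits and site 12 had 2 PBS peaks. WT1 matches were within 100 bp of 8 of 15 PBS summits, 53.3% (30.1 to 75.2%), against 28.6% of all PBS summits, and of 7 of 22 ADR summits, 31.8% (16.4 to 52.7%), against 29.0%. Within 50 bp it was 4 of 15 PBS summits, 26.7%, against 21.9% of all, and again 7 of 22 ADR summits, against 23.1%. LMX1B matches were at 2 sites, 8 and 10, or 2 of 22 ADR summits and 1 of 15 PBS summits, and at 3.52% and 1.52% of all summits. AP-1 matches were at 3 of 15 PBS summits and 1 of 22 ADR summits, and at 9.33% and 4.02% of all. KLF matches were at 5 summits in each list, and at 19.3% of all PBS and 18.6% of all ADR summits. A single TEAD match was found, in ADR at site 24. That is 1 of 22 ADR and 0 of 15 PBS summits, and 9.25% of all ADR and 7.73% of all PBS summits held one. The GC content of the printed kind of window ran from 42.8% at site 16 to 69.2% at site 18. In the 300 bases of the promoter, 1 WT1 match was the only match, and 18.1% of 32851 RefSeq promoters in the table held one. A match is a run of letters and does not show that the factor was bound.

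**Figure D4:**
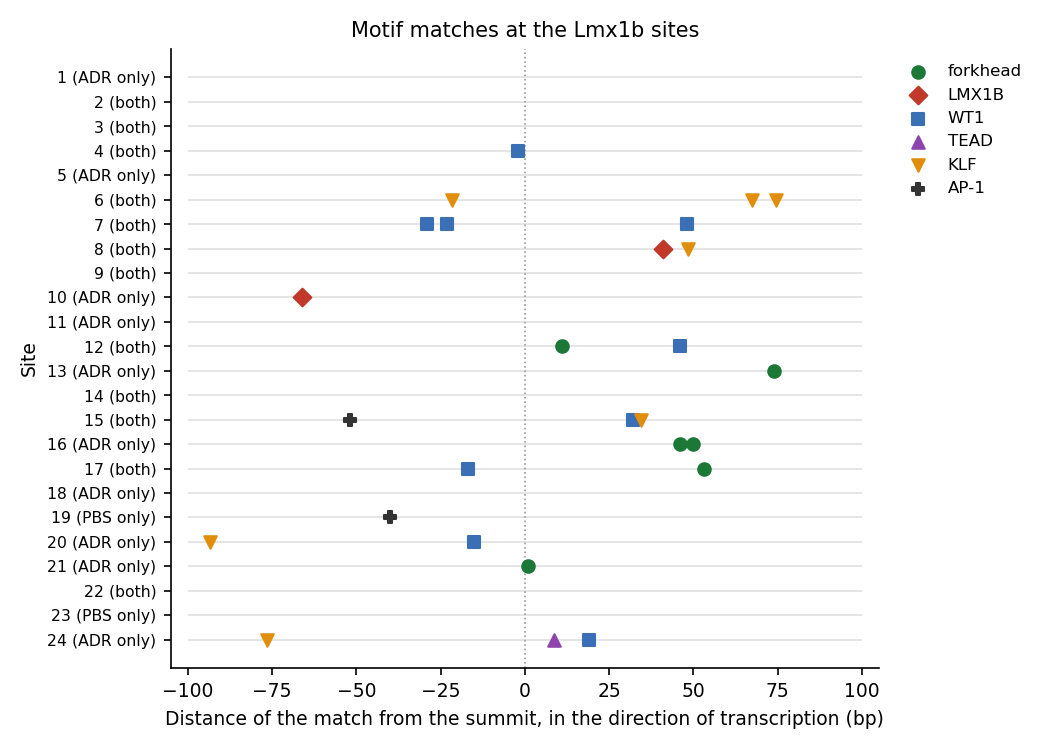
Each row is 1 of the 24 sites (y axis, with the lists in which it was called), and symbols mark motif matches by the distance of their center from the summit in bp (x axis, downstream to the right). Forkhead matches are at 5 sites, 3 of them ADR only, and 10 rows are empty.

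Among 21938 records of protein-coding genes, counted in the same kind of window, *Lmx1b* ranked high in both lists. Its 15 PBS peaks ranked 558, above 96.8% of the records, and its 22 ADR peaks ranked 145, above 99.2%. The medians were 3 and 2 peaks. More ADR than PBS peaks were found at 22.3% of the records and fewer at 34.5%, and the difference of 7 in favor of ADR at *Lmx1b* ranked 104. Windows differ in length with the genes. Per 100 kb of window, *Lmx1b* had 11.6 PBS and 17.0 ADR peaks, and the difference of 5.40 ranked 85. Its highest ADR fold ranked 58 among 16339 records with an ADR peak, and its highest PBS fold 2146 among 16685. With 5 shared sites at a ratio of at least 3, it stood level with *Fyn* and *Msi2* and behind *Map3k20*, with 6, and Gm20388, with 15 in a window of 4484882 bp. This ranking was chosen after the values were seen.

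The genes most like *Lmx1b* were found by distance over 4 measures, the log2 numbers of PBS and ADR peaks and their median log2 folds, among 5610 genes with at least 5 peaks in each list. The nearest was *Ksr1*, a scaffold of RAF and MEK signaling, with 16 PBS and 24 ADR peaks. Next were *Flrt1*, a membrane protein with leucine-rich repeats, with 14 and 24, and *Ptpro*, the receptor tyrosine phosphatase GLEPP1 of podocyte foot processes, with 18 and 23. *Astn2* had 12 and 22, and *Mapt*, which encodes tau, 13 and 18. Their distances ran from 0.380 to 0.666, and the median over all genes compared was 3.40.

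Other members of the LIM homeodomain family had few peaks. The other 11 genes together had 19 PBS and 19 ADR peaks, with more in ADR at 4, fewer at 3 and equal numbers at 4. *Lmx1a*, the closest relative of *Lmx1b*, had 1 peak in each list in a window of 209.505 kb. *Lhx1*, which acts early in kidney development, had 2 in each. The 9 genes of LIM cofactors and LIM-only proteins had 72 PBS and 67 ADR peaks, with more in ADR at 5 and fewer at 3. *Ldb1*, which encodes the main partner of LIM domains, had 10 PBS and 12 ADR peaks. *Ssbp3*, whose product stabilizes LDB1, had 21 and 17, and *Ssbp4* had 21 and 16.

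Among genes of podocyte TFs, *Lmx1b* had the largest difference in favor of ADR when the whole gene body was counted with the flanks. The other 8 had 75 PBS and 79 ADR peaks, with more in ADR at 5 and fewer at 3. *Tcf21*, needed for glomerular development, had 3 and 8, *Foxc2* itself 6 and 9, and *Tead1*, with the only larger totals, 24 and 28. *Wt1* had 10 and 11. *Klf6* went the other way, with 11 and 3, and *Foxc1* had 7 and 5. The first place of *Lmx1b* depends on its window of 129.547 kb, against 100.001 kb for *Tcf21*. Within 50 kb of the start, *Lmx1b* had 11 PBS and 15 ADR peaks, a smaller gain than that of *Tcf21*. Within 10 kb it had 3 and 4, *Tcf21* 1 and 5 and *Foxc2* 3 and 5, and no other gene of this list gained peaks. Of genes that LMX1B is known to act on or with in podocytes, *Cd2ap*, a slit diaphragm adaptor, had 9 PBS and 10 ADR peaks. *Col4a3* and *Col4a4*, which encode collagen chains of the glomerular basement membrane and share most of a window, had 11 and 11, and 10 and 12.

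**Figure D5:**
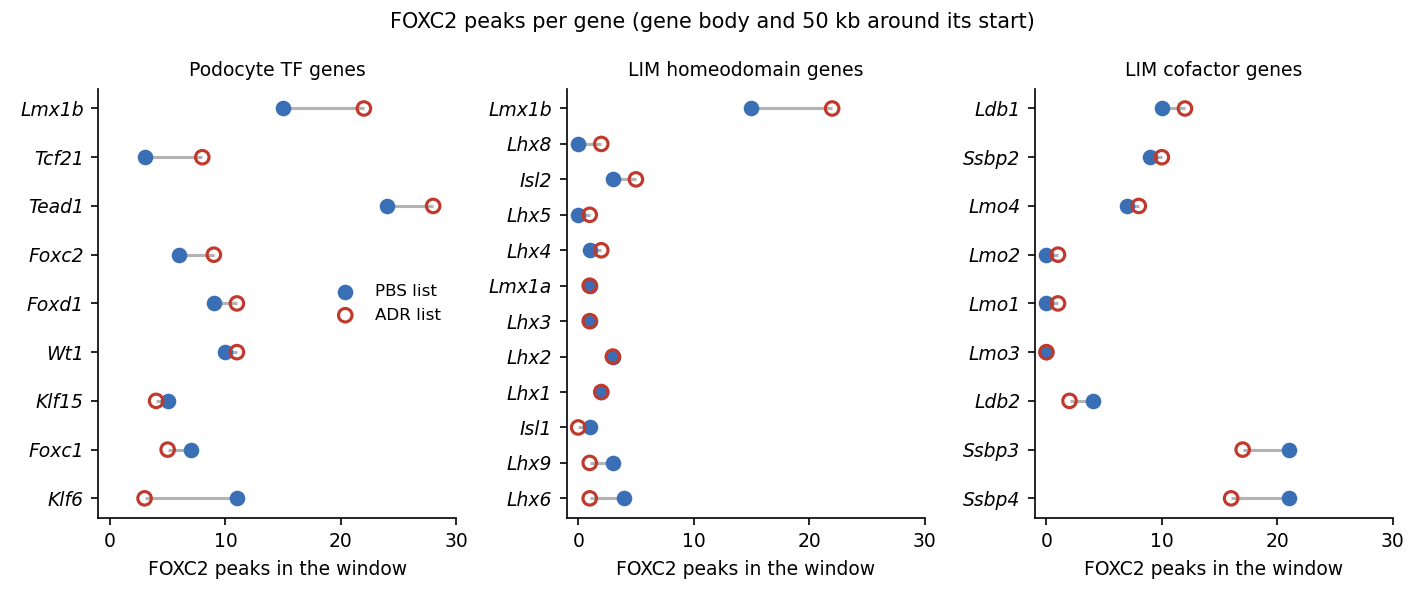
Filled circles (PBS) and open circles (ADR) give the number of FOXC2 peaks (x axis) in the gene body and 50 kb around the start of each gene of 3 lists (y axis). *Lmx1b* stands at 15 and 22, and the other 11 LIM homeodomain genes at 5 or fewer.

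FOXC2 peaks within 10 kb of the start were at 6 of 6 podocyte marker genes in both lists. They were at 3 of 6 endothelial, 4 of 4 mesangial, 1 of 4 proximal tubule and 1 of 4 immune marker genes in PBS. In ADR they were at 2, 2, 3 and 1 of them. Of all coding gene records, 58.8% had a PBS peak and 55.9% an ADR peak within 10 kb. Peaks are not expression, so these counts do not measure the purity of the sort. A change in the cells sorted and a change within the cells cannot be told apart here.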

How the data were processed

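FOXC2 ChIP-seq was done by the authors on sorted podocytes, with 3 samples per group. Reads were 50-bp single-end. The authors used the nf-core/chipseq pipeline to trim the reads, to align them to GRCm38 and to call narrow peaks, and pooled all samples of a group. The peak caller, its version and its threshold are not given in the sources used here. The deposited lists, 1 per group, hold more peaks than the authors report for FOXC2 in each group, and the difference was not traced. They give the position and summit of each peak. The authors also give its fold over local control, which is a ratio. The deposited −log10 of the q at the summit was used as well, but not that of the p, nor the authors' score. Although the lists are pooled, peaks are named after 1 sample. Read depth is unknown, so no interval could be put on a fold.

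Peak ends were checked against the lengths of the 21 GRCm38 chromosomes that carry genes used here, and genes came from GENCODE M21. The rule for the window was read as gene body or 50 kb, since a locus is a gene with its flanks. The fold of a site in a list is that of its strongest peak. Positions were counted from 1. Percentiles and ranks were taken over the whole lists or over all 21938 coding gene records. Promoter means 1 kb upstream to 100 bp downstream of a transcript start. Promoter sequences came from RefSeq on GRCm38. The genes named were those starting in the window, the 5 most like *Lmx1b* by the distance, and examples from the gene lists. Gene lists were podocyte TFs, the LIM homeodomain family, LIM cofactors, genes known as LMX1B targets or partners, and markers of 5 cell types. The members and lists were chosen with earlier results of these data known. Results at some genes of the lists are not reported here, and the counts leave them out.

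Tools were Python 3.11.15, pandas 2.3.3, NumPy 2.4.6, SciPy 1.17.1 and, for plots, matplotlib 3.10.9. The scripts were tested on simulated peaks. The alternatives were other windows, joined sites in place of peaks, stricter peak limits (−log10 q or fold of at least 5, or the 20000 peaks of smallest q per list), sharing judged by 50% of the length of each peak or by summits at most 200 bp apart, other measures of fold, other motif windows, and counts per 100 kb.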

Additional observations from a re-analysis of the deposited data

How the results depend on the processing

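Under every alternative run for the number of peaks, ADR had more than PBS at the locus. The gain of 7 peaks was 3 in the part of the gene body within 50 kb of the start (with 13 ADR peaks), 4 within 50 kb on both sides, and 1 within 10 kb (3 PBS and 4 ADR peaks). In the top 20000 peaks per list by q it was again 7, with 6 PBS and 13 ADR peaks. There 69.2% of the ADR peaks had no peak of the cut PBS list on them, against 36.1% of all ADR peaks kept. Both lists were cut, so this share also counts ADR peaks whose PBS partner was called but fell outside the top 20000. When sharing needed 50% of each peak, 46.7% of the PBS peaks were PBS only in place of 13.3%, against 42.8% of all. With a fold of at least 5 and the other list as called, it was 0 of 11 PBS peaks, against 22.8% of all. At the same limit 6 of 18 ADR peaks were ADR only, 33.3%, against 28.4% of all. With a −log10 q of at least 5 the shares were 33.3% of ADR peaks, against 29.1%, and 8.33% of PBS peaks, against 25.7%. By summits at most 200 bp apart they were 45.5% in ADR, against 35.8%, and 20% in PBS, against 37.4%. The share of coding gene records with a smaller gain than *Lmx1b* was 99.3%, 99.6% per 100 kb and 89.2% within 10 kb. For ADR peaks it was 94.8% within 10 kb. For PBS peaks it was 94.9% per 100 kb and 86.4% within 10 kb. The number of shared sites with the higher ADR value was between 9 and 10 of 12 by all measures, and 8 passed a ratio of 1.5 also after centering on all shared sites. The causes were not tested.

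No paired analysis was possible because the samples of each group were pooled into 1 list, and leaving out a sample was not possible either. Without read depth, peaks called in 1 list only cannot be told from peaks that just missed the caller's limit in the other list. The authors state that peaks were called over input. Folds were read as taken over each list's own input, and the sources used here do not say which input served which list. The lists differ in range, with highest folds of 80.6 in PBS and 49.1 in ADR.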
